A study of Mus musculus with 6 samples.

Results

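Prostaglandins and leukotrienes are short-lived lipid signals made from arachidonic acid. The set described here holds 10 mouse genes of these pathways, taken as listed enzymes and receptors and followed through every array probe that reports a RefSeq transcript of the gene. They are the cyclooxygenases Ptgs1 and Ptgs2, the prostanoid synthases Ptges, Ptgds and Ptgis, the leukotriene genes Alox5 and Alox5ap, the receptors Ltb4r1 and Ptger4, and the epoxide hydrolase Ephx2. All 10 were on the array. Of these, 9 passed the filter for dim probes and were among the 15306 genes tested, and Ptgs2 did not pass.

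Arachidonic acid is freed from lipids by phospholipases and lipases and then enters one of several routes. Cyclooxygenases turn it into prostaglandin H2, which terminal synthases convert to prostaglandins E2, D2, F2α, prostacyclin and thromboxane. 5-lipoxygenase, which needs the membrane protein FLAP, makes leukotrienes, and cytochrome P450 enzymes make epoxides that soluble epoxide hydrolase opens to diols. In adipose tissue, prostaglandin E2 restrains lipolysis through the receptor EP3, prostacyclin and prostaglandin E2 have been tied to beige fat formation, and leukotrienes are made mainly by myeloid cells and draw leukocytes into the tissue.

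The study compared Zip13-KO mice with wild-type (WT) littermates in the inguinal white fat depot (iWAT), with 3 samples of each genotype. ZIP13, encoded by Slc39a13, is a zinc transporter. In the Zip13-KO mice a Neo cassette stood in place of exons 6–8 in every tissue. The allele was made in R1 embryonic stem cells, and mice of both genotypes were backcrossed to C57BL/6J, were 10 weeks old and ate powdered food because Zip13-KO mice are missing teeth. Sex, the feed given to these mice, and whether each sample was 1 animal are not given in the sources used here, so the p-values measure the spread between these samples only.

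Total RNA was read in 1 colour on 6 Agilent whole-genome mouse arrays (the SurePrint G3 8x60K design), all on 1 slide and from 1 scan. Levels are given as quantile-normalized log2 intensity, and differences as Zip13-KO minus WT on that log2 scale. Levels are not compared between genes, since each probe has its own brightness. A gene was called when the Benjamini-Hochberg adjusted p of limma over all tested genes was under 0.05 and the change was larger than 1.5-fold (0.58 on the log2 scale). Slc39a13 fell by 4.33 (SE 0.168, adjusted p = 0.00128), from 10.96 ± 0.30 to 6.63 ± 0.15 (SD, n = 3 each). Whether its probe lies inside the deleted exons was not checked, so this checks the labels only in part. Between 58.8% and 60.4% of spots were well above background in Zip13-KO and between 62.5% and 63.2% in WT, and no spot was saturated. All 10 adipocyte markers were measured, with Adipoq, which encodes adiponectin, at 16.7 in WT and 17.1 in Zip13-KO.

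Promoter sequence was held for 7 of the 10 genes. The promoters of Alox5 and Ltb4r1, which fell, and of Ptgds, which rose, are printed for the called genes that had an entry, and that of Ptgs2 because it alone held a match to a C/EBP motif and the study concerns C/EBP-β. Each is the 250 bases before the annotated RefSeq start (GRCm38.p6), written 5′ to 3′ on the strand of the gene, with motif matches in capitals. The windows are chr6:116461179-116461428 (minus strand) for Alox5, chr14:55765712-55765961 (plus) for Ltb4r1, chr2:25469750-25469999 (minus) for Ptgds and chr1:150099781-150100030 (plus) for Ptgs2.
Alox5: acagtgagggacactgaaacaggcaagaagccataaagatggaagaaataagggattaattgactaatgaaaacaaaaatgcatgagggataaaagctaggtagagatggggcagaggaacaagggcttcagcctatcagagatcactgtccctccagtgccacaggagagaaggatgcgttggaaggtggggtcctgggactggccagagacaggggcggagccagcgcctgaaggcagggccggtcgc
Ltb4r1: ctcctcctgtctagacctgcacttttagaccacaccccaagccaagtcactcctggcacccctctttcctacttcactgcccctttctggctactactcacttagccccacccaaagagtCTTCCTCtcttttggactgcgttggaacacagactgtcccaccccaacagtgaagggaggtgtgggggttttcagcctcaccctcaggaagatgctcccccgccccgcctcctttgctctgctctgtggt
Ptgds: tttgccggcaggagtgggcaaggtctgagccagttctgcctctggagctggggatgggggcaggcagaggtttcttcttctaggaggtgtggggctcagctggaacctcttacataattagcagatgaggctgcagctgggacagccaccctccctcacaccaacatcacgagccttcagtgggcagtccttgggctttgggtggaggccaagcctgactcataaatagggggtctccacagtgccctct
Ptgs2: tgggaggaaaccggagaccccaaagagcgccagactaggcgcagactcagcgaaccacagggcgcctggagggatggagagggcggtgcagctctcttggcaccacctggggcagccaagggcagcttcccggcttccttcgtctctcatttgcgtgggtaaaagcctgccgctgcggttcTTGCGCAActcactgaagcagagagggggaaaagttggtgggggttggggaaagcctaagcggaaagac

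Letters of 5 motifs were searched on both strands. The Ptgs2 promoter held the C/EBP letters TTGCNNAA as a palindrome, which reads the same on both strands and begins 69 bases before the start. Those letters occur in 9.56% of 32851 mouse promoters of this length. The Ltb4r1 promoter held the PU.1 letters GAGGAAG on the minus strand, beginning 130 bases before the start, and the Ptgs1 promoter held them on the plus strand, 24 bases before the start, against 10.6% of all promoters. C/EBP proteins act in adipocytes and myeloid cells, and PU.1 is a factor of myeloid cells. The NF-kB letters GGGACTTTC (0.289% of promoters), the cAMP response element TGACGTCA (1.55%) and a direct repeat of AGGTCA spaced by 1 base, which PPAR and RXR bind (0.0335%), matched none of the 7. The Alox5, Ptgds, Ptges and Ptger4 promoters held no match to any of the 5. A match describes the letters, and binding was not measured on these arrays.

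Of the 9 genes tested, Ptgds and Ephx2 rose, Alox5, Alox5ap and Ltb4r1 fell, and Ptgs1, Ptges, Ptgis and Ptger4 were not called. The 3 that fell are the 5-lipoxygenase pair and a receptor for its product leukotriene B4. Across all genes tested, 10.3% were called higher and 8.38% lower in Zip13-KO. All 3 Zip13-KO arrays lay above all 3 WT arrays for 2 of the 9 genes (29.2% of all genes) and below them for 5 (25.9% of all genes). The median change of the 9 was -0.63, beside -0.000512 over all genes tested.

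**Figure D1:**
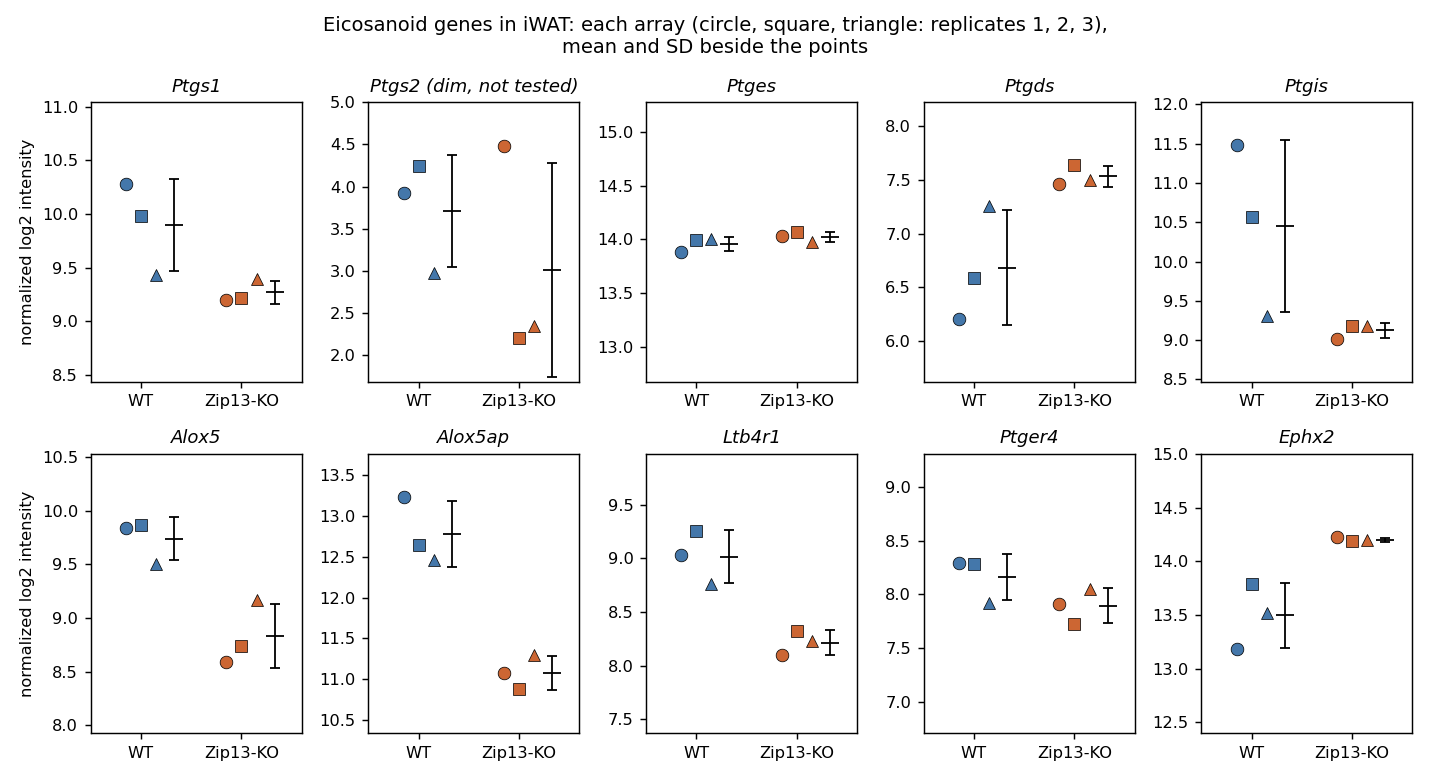
Normalized log2 intensity of each of the 10 genes on each array (vertical axes differ between genes and do not start at 0), with blue for WT, orange for Zip13-KO, circle, square and triangle for replicates 1, 2 and 3, and the mean with SD beside each group of 3. For Alox5ap, Alox5 and Ltb4r1 the genotypes lie apart with Zip13-KO lower, for Ephx2 and Ptgds they lie apart with Zip13-KO higher, and for Ptgs1 and Ptgis WT replicate 3 sits close to the Zip13-KO arrays.

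Among the cyclooxygenases, Ptgs1 encodes the constitutive enzyme COX-1. Its levels were 10.28, 9.98 and 9.43 on the WT arrays and 9.20, 9.22 and 9.39 on the Zip13-KO arrays. The genotypes did not overlap, but the gap between the lowest WT array and the highest Zip13-KO array was small beside the spread within WT. The difference was -0.63 (SE 0.217, 95% interval -1.16 to -0.10, adjusted p = 0.0671) and was not called. Without WT replicate 3 it was -0.86 (adjusted p = 0.0134) and passed, and without WT replicate 1 it was -0.44 (adjusted p = 0.121).

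Ptgs2 encodes COX-2, the cyclooxygenase induced by cytokines and other stimuli, and its probe was near background. The array carries 10 spots of this probe. On the WT arrays 9, 10 and 1 of them were well above background, and on the Zip13-KO arrays 10, 1 and 0 were. The median processed signal of the spots was 16.1, 21.0 and 9.29 intensity units in WT and 20.04, 4.54 and 4.53 in Zip13-KO. The brightest 3 arrays thus came from both genotypes. With no filter on dim probes the difference was -0.71 (SE 0.731, adjusted p = 0.536 over 21368 genes), so a change of Ptgs2 in either direction was not detectable at this signal.

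The terminal synthases differed from one another in what was measured. Ptgds encodes the lipocalin-type synthase of prostaglandin D2. Its levels were 6.20, 6.59 and 7.26 in WT and 7.46, 7.64 and 7.50 in Zip13-KO. Every Zip13-KO array was above every WT array, and the WT arrays spanned over 1 log2 unit. Ptgds rose 1.81-fold, a difference of 0.85 (SE 0.261, adjusted p = 0.0488). That p is next to the threshold, and the call was lost under 11 of 19 alternatives, among them every omission of 1 array except WT replicate 3, and without WT replicate 1 the difference was 0.61 (adjusted p = 0.0795).

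Ptgis encodes prostacyclin synthase. Its levels were 11.48, 10.57 and 9.31 in WT and 9.02, 9.18 and 9.17 in Zip13-KO. The Zip13-KO arrays lay together (SD 0.0933), whereas the WT arrays were spread over more than 2 log2 units (SD 1.09) with replicate 3 next to Zip13-KO. The difference of -1.33 (SE 0.514, 95% interval -2.58 to -0.08, adjusted p = 0.0910) was not called. It was -1.90 (adjusted p = 0.0128) without WT replicate 3 and -0.81 (adjusted p = 0.148) without WT replicate 1.

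Ptges encodes microsomal prostaglandin E synthase 1, which works with COX-2, and was measured by a pair of probes. The brighter probe read 13.89, 13.99 and 14.00 in WT and 14.03, 14.07 and 13.98 in Zip13-KO. These arrays overlapped within 0.2 log2 units, with a difference of 0.07 (SE 0.0737, 95% interval -0.11 to 0.25, adjusted p = 0.512). That interval holds no change as large as 1.5-fold. The dimmer probe read 10.11, 11.01 and 10.70 in WT and 11.05, 11.19 and 10.89 in Zip13-KO. Its difference was 0.44 (SE 0.233, adjusted p = 0.200 over all kept probes), also not called, and the difference between the probes was not tested.

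The leukotriene genes fell together. Alox5ap encodes FLAP, the membrane protein that hands arachidonic acid to 5-lipoxygenase. It was at 13.23, 12.64 and 12.47 in WT and 11.07, 10.88 and 11.29 in Zip13-KO. The groups were apart by more than 1 log2 unit. Alox5ap fell 3.24-fold, a difference of -1.70 (SE 0.219, adjusted p = 0.00634), and stayed called under 18 of 19 alternatives.

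Alox5 encodes 5-lipoxygenase, the first enzyme of leukotriene synthesis. It was at 9.84, 9.87 and 9.51 in WT and at 8.59, 8.74 and 9.16 in Zip13-KO. The groups did not overlap, and Zip13-KO replicate 3 came nearest to WT. Alox5 fell 1.87-fold, a difference of -0.91 (SE 0.178, adjusted p = 0.0142). The call was lost without Zip13-KO replicate 1 (-0.79, adjusted p = 0.0514) and without Zip13-KO replicate 2 (-0.86, adjusted p = 0.0546).

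Of the receptors, Ltb4r1 encodes BLT1, the high-affinity receptor through which leukotriene B4 attracts neutrophils, macrophages and T cells. It was at 9.04, 9.25 and 8.76 in WT and at 8.10, 8.32 and 8.23 in Zip13-KO. All Zip13-KO arrays were below all WT arrays. Ltb4r1 fell 1.74-fold, a difference of -0.80 (SE 0.141, adjusted p = 0.0110), and the call held with each array left out in turn.

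Ptger4 encodes EP4, a receptor for prostaglandin E2 that raises cAMP. It was at 8.29, 8.28 and 7.92 in WT and at 7.91, 7.73 and 8.05 in Zip13-KO. The groups overlapped, since Zip13-KO replicate 3 was above WT replicate 3. The difference of -0.27 (SE 0.141, 95% interval -0.61 to 0.07, adjusted p = 0.180) was not called, and a fall slightly larger than 1.5-fold lies within its interval.

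Ephx2 encodes soluble epoxide hydrolase, which turns the epoxides of arachidonic and linoleic acid into diols. It was at 13.18, 13.79 and 13.52 in WT and at 14.22, 14.19 and 14.19 in Zip13-KO. The Zip13-KO arrays agreed closely (SD 0.0189) and all lay above WT. Ephx2 rose 1.63-fold, a difference of 0.71 (SE 0.156, adjusted p = 0.0194). Without WT replicate 1 it was 0.55 and below the fold limit, and the call was also lost without any one Zip13-KO array (adjusted p = 0.0563 to 0.0677).

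The SD of 8 of the 9 genes was smaller in Zip13-KO than in WT, with Alox5 as the exception, and 68.9% of all genes tested had the smaller SD in Zip13-KO. Zip13-KO replicate 1 shared a column of the slide with the 3 WT arrays, and the other 2 Zip13-KO arrays stood in the next column. Within the shared column, where that 1 array stood against 3 WT arrays, the differences were -1.71 for Alox5ap, -1.14 for Alox5, -0.92 for Ltb4r1, 0.78 for Ptgds and 0.73 for Ephx2. None was called there (adjusted p = 0.140 to 0.334), and neither was any other gene, Slc39a13 included. At an unadjusted p under 0.05, limma passed 3738 genes and 3 of the set there.

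**Figure D2:**
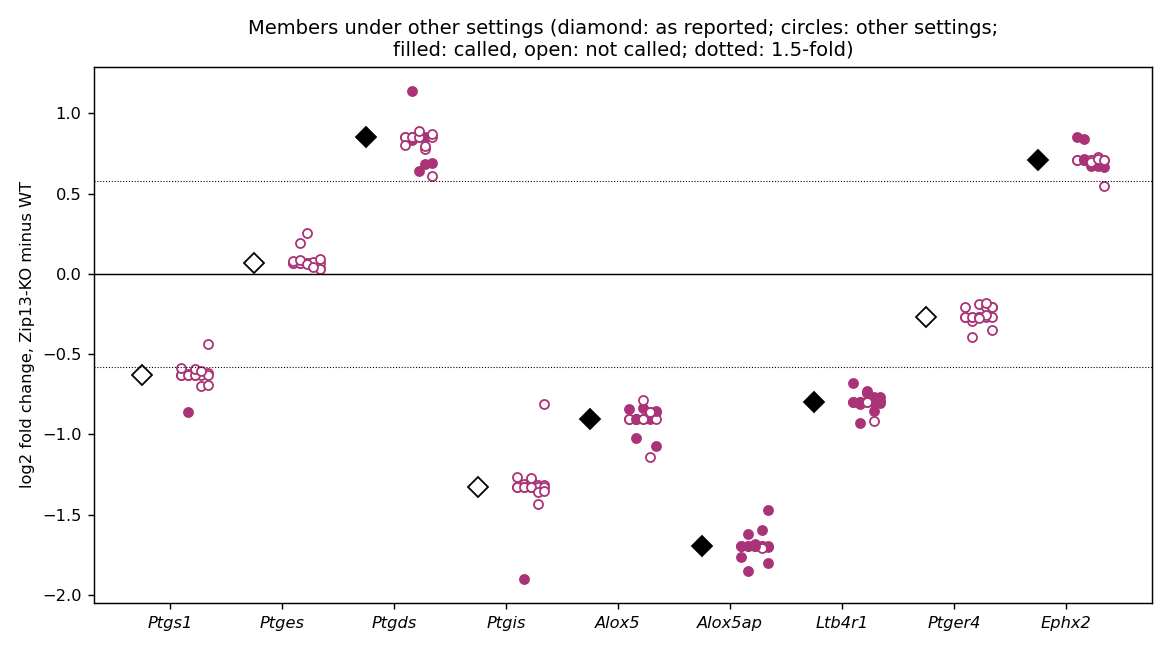
Difference of each tested gene between Zip13-KO and WT (vertical axis, log2 scale) as reported (diamond) and under each of 19 other settings of the processing, the test and the arrays used (circles), filled where the gene was called and open where it was not, with dotted lines at 1.5-fold. Alox5ap kept a difference between -1.85 and -1.47, no gene changed sign, and Ptgds had 11 open circles.

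Of 77 further genes of the same pathways, 64 passed the filter, and 11 of these rose and 13 fell (10.3% and 8.38% of all genes tested). Among those that fell, Pla2g4f and Cyp2c23 passed the filter through the WT arrays alone, so their falls are not independent of it. With the filter on all 6 arrays, 11 rose and 11 fell. The median change of the 64 was -0.12. All Zip13-KO arrays lay above all WT arrays for 20 of the 64 (29.2% of all genes tested) and below them for 22 (25.9% of all genes tested). Every called gene is named below, with its difference on the log2 scale or a fold change. Where its probe was dim in Zip13-KO, a fold with the dim arrays raised to a floor is added. Of the 24, 8 were called in every alternative except the one within a slide column. Another 7 were called in 10 alternatives or fewer, namely Mgll, Pla2g6, Pla2g15, Pla2g2e, Cysltr1, Pla2g4f and Cyp2c23.

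Upstream of the set, 14 phospholipases and lipases were tested, of which 6 rose and 5 fell. Abhd6 (1.18) and Mgll (0.94), which encode hydrolases of the endocannabinoid 2-arachidonoylglycerol, rose, as did Pla2g12a (0.74), Pla2g6 (0.65), Pla2g2e (0.63) and Plaat3 (0.62), whose product is the main phospholipase A2 of adipocytes. Pla2g4a, which encodes the cytosolic phospholipase A2 that supplies arachidonic acid for prostaglandin and leukotriene synthesis, was at 9.89, 9.53 and 9.37 in WT and 8.65, 8.58 and 8.99 in Zip13-KO. It fell by 0.85 (SE 0.174, adjusted p = 0.0154), with no overlap of the genotypes. Pla2g7 (-1.08), which encodes the secreted hydrolase of platelet-activating factor, Pla2g15 (-0.80), a lysosomal phospholipase gene, and Daglb (-0.64), a diacylglycerol lipase gene, also fell. The Pla2g4f probe was not well above background in Zip13-KO, on all 3 arrays. With these raised to at least their lowest value well above background, its mean was 1.77-fold lower there. That figure leaves out the spread between arrays. The fitted difference was -1.01 (95% interval -1.73 to -0.28, adjusted p = 0.0440) and was called. That call was kept in 4 of 18 alternatives.

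Beside the prostanoid synthases of the set, 9 other genes of prostanoid synthesis were tested, of which 1 rose and 2 fell. Tbxas1, which encodes thromboxane synthase, was at 11.40, 11.34 and 10.55 in WT and 9.54, 9.45 and 9.80 in Zip13-KO, and fell 2.84-fold (SE 0.245 on the log2 scale, adjusted p = 0.00935). Hpgds, the hematopoietic counterpart of Ptgds in prostaglandin D2 synthesis, was at 8.23, 7.22 and 7.20 in WT and 6.30, 5.99 and 6.37 in Zip13-KO. Hpgds fell by 1.33 (SE 0.297, adjusted p = 0.0201), a call kept in 14 of 19 alternatives. The 2 genes that encode prostaglandin D2 synthases were thus called in opposite directions, but the Ptgds call was lost under 11 of 19 alternatives. Ptges2 rose by 0.79 (SE 0.145, adjusted p = 0.0122). The lowest value of this list was that of Akr1c18, at -2.07, and it was not called (adjusted p = 0.0650). Its WT spread (SD 1.43) was wider than that of Ptgis (SD 1.09).

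Of 6 genes of prostanoid transport and breakdown, Slco2a1, which encodes the prostaglandin uptake carrier, fell by 1.59 (SE 0.195, adjusted p = 0.00584), and Ptgr2, which encodes a prostaglandin reductase, rose by 0.80 (SE 0.125, adjusted p = 0.00849). Of 7 other prostanoid receptors, only Ptger3 was called. It encodes EP3, the receptor by which prostaglandin E2 lowers cAMP in adipocytes, in contrast to EP4. Ptger3 was at 8.51, 9.03 and 9.80 in WT and 10.84, 11.01 and 10.24 in Zip13-KO, with no overlap. It rose 3.00-fold, a difference of 1.59 (SE 0.362, adjusted p = 0.0213). The call was kept in 12 of 19 alternatives. Among those that lost it were the fits without WT replicate 2 and without Zip13-KO replicate 1 or 2. The lowest of the receptors was Ptgir, the prostacyclin receptor gene, at -0.44 and not called (adjusted p = 0.0653).

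Around the leukotriene genes of the set, Dpep2, which encodes a dipeptidase that converts leukotriene D4 to E4, fell by 2.15 (SE 0.187, adjusted p = 0.00441), and Mgst2, whose product can make leukotriene C4, rose by 0.84 (SE 0.192, adjusted p = 0.0215). The other 7 genes of that list were not called. They include Lta4h, which encodes the enzyme that makes leukotriene B4 (-0.18, adjusted p = 0.124), and Ltc4s, the leukotriene C4 synthase gene (0.30, adjusted p = 0.0537), both named after their values were seen. Cysltr1, a cysteinyl leukotriene receptor gene, fell by 0.88 (adjusted p = 0.0458), a call kept in 8 of 19 alternatives. Fpr2, which encodes a receptor for lipoxin A4 and formylated peptides, fell by 2.78 (SE 0.304, adjusted p = 0.00503), from 8.34 ± 0.45 to 5.55 ± 0.45 (SD, n = 3 each). The highest of these 4 receptors was Cmklr1, at 0.30 and not called.

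None of the 4 other lipoxygenase genes tested was called by limma (0 at an unadjusted p under 0.05, beside 7217 of all 15306 genes tested). They ranged from -0.34 for Alox15 to 0.05 for Alox12b. Of 11 other genes of epoxide hydrolases and P450 enzymes, Cyp2j6, an epoxygenase gene, rose by 0.65 (adjusted p = 0.00551). Cyp4f18, whose product hydroxylates leukotriene B4, fell by 0.77 (SE 0.0687, adjusted p = 0.00441). The Cyp2c23 probe was not well above background on the 3 Zip13-KO arrays. With these raised to at least their lowest value well above background, its mean was 1.09-fold lower there. The fitted difference was -1.54 (95% interval -2.64 to -0.43, adjusted p = 0.0443), a call also kept in 4 of 18 alternatives.

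**Figure D3:**
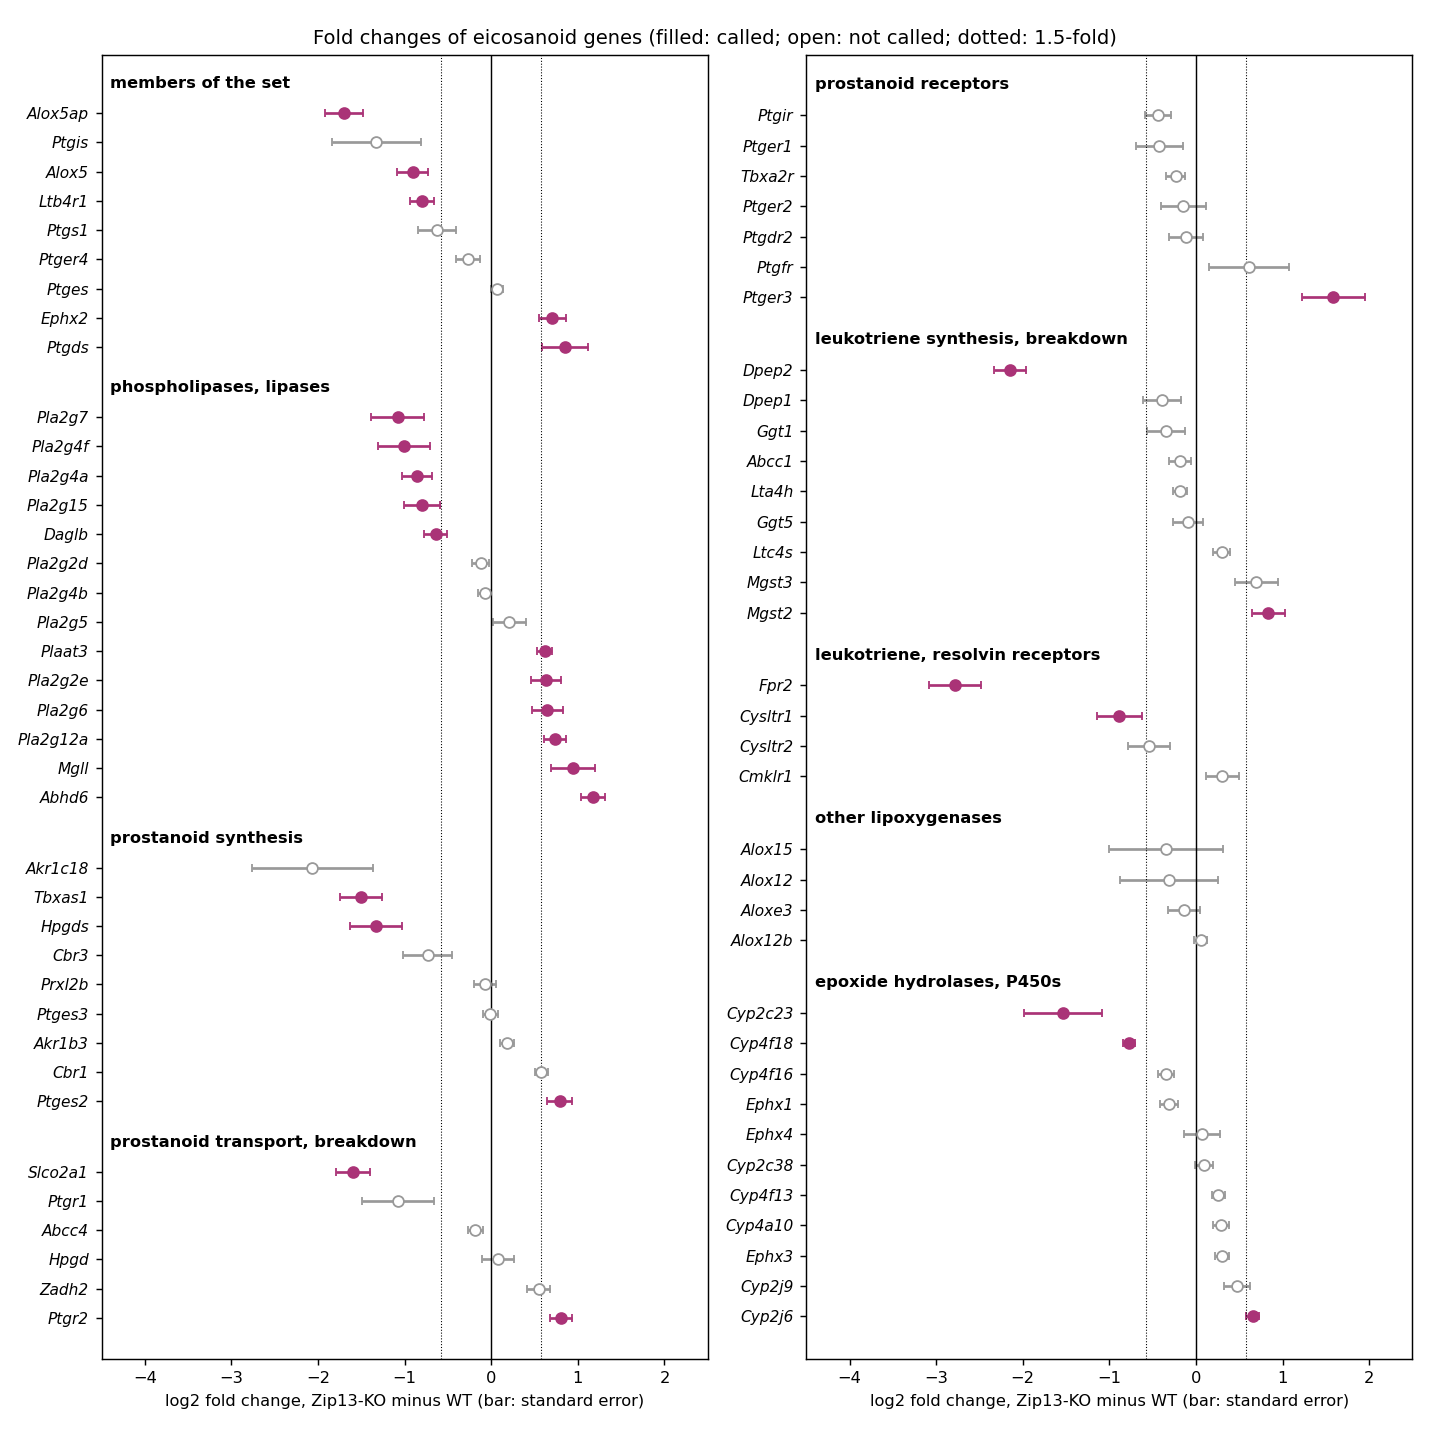
Difference between Zip13-KO and WT (horizontal axis, log2 scale, bar for the standard error) of the 9 tested genes of the set and of 64 other eicosanoid genes by role, filled where called and open where not, with dotted lines at 1.5-fold. Fpr2 and Dpep2 are lowest among the called genes and Ptger3 is highest, and the points of Pla2g4f and Cyp2c23 are fitted values of probes not well above background in Zip13-KO.

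Levels of some cell type markers also differed between the genotypes. In bulk tissue, fewer cells of a type and less RNA per cell cannot be told apart. Of 14 macrophage markers, 11 fell and none rose, from Fcgr1 (-2.57) to Cd14 (-0.83), and all 14 were well above background on every array. As the mean over the list on each array relative to the WT mean, they lay between -0.27 and 0.35 in WT and between -1.51 and -1.003 in Zip13-KO. Of 11 neutrophil markers tested, 6 fell, from Mpo (-1.78) to Il1r2 (-0.99). The others were not called, and Csf3r (0.005) and Elane (-0.03) hardly differed. The list lay between -0.06 and 0.04 in WT and between -1.90 and -0.61 in Zip13-KO. Its lowest mean was on Zip13-KO replicate 1. There Ngp (3.25) and Mmp8 (1.51) were under that array's lowest value well above background (3.56). Ly6g, a defining neutrophil marker, was not analysed here. Of 8 mast cell markers tested, Fcer1a (-2.52) and Hdc (-1.16) fell. By limma 7 of the 8 had an unadjusted p under 0.05, Kit among them. Kit was higher in Zip13-KO by 0.41 (limma adjusted p = 0.0279), under the fold limit and not called. The mast cell list lay between -0.61 and 0.87 in WT and between -1.18 and -0.81 in Zip13-KO. None of 12 lymphocyte markers was called by limma. At an unadjusted p under 0.05 limma passed 9 of them, each with a smaller change than 1.5-fold, beside 7217 of all 15306 genes tested. The lymphocyte list lay between -0.13 and 0.24 in WT and between -0.52 and -0.33 in Zip13-KO. The part of these shifts in the falls of Alox5, Alox5ap and Ltb4r1, and of Hpgds, Tbxas1, Fpr2 and Dpep2, was not tested.

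Stromal progenitor and fibroblast markers were spread within WT like Ptgs1 and Ptgis. On the WT arrays their mean lay at 0.60, -0.01 and -0.59 for replicates 1, 2 and 3, and on the Zip13-KO arrays between -0.96 and -0.64. WT replicate 3 was thus close to Zip13-KO here as well, but this was not particular to these genes. Over all genes tested, the Zip13-KO arrays correlated at 0.960 to 0.966 with WT replicate 1. With replicate 2 they correlated at 0.976 to 0.980, and with replicate 3 at 0.980 to 0.984. The mast cell list lay at 0.87, -0.26 and -0.61 on the same WT arrays. Of 10 stromal markers, 3 fell, from Ly6a (-1.37) to Pdgfra (-0.65). Their part in the values of Ptgs1 and Ptgis was not tested.

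Some markers rose, as Ephx2, Ptgds and Ptger3 did. Of 10 adipocyte markers 3 rose, from Pparg (1.13) to Lipe (0.77), and the list lay between -0.47 and 0.28 in WT, with replicate 1 lowest, and between 0.57 and 0.67 in Zip13-KO. Ephx2 and Ptgds were also lowest on WT replicate 1. Over all genes tested, that was the WT array that correlated least with the Zip13-KO arrays (0.960 to 0.966). Of 10 endothelial markers 3 rose, from Flt1 (0.92) to Cdh5 (0.77), and the list lay between -0.05 and 0.07 in WT and between 0.37 and 0.42 in Zip13-KO. Cspg4 (1.42) and Rgs5 (0.71) rose among 8 markers of smooth muscle and pericytes, a list that lay between -0.14 and 0.15 in WT and between 0.32 and 0.45 in Zip13-KO. Lrrn4 (1.47) rose among 3 tested markers of mesothelium. None of 6 mammary or 9 skeletal muscle markers was called by limma (1 and 0 at an unadjusted p under 0.05, beside 7217 of all 15306 genes tested). The genotypes overlapped on the mesothelial, mammary and skeletal muscle lists. The part of the markers in the rise of Ephx2, Ptgds and Ptger3 was not tested.

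**Figure D4:**
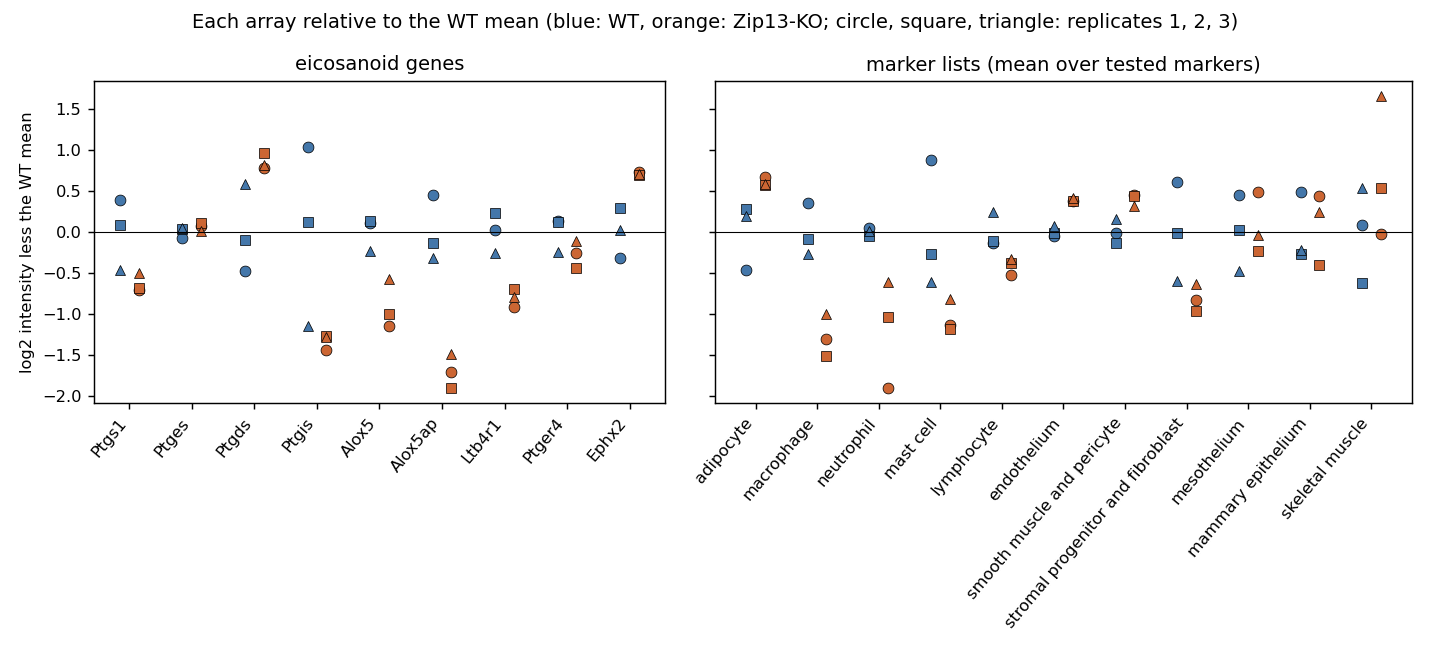
Log2 intensity on each array relative to the WT mean (vertical axis) for the 9 tested genes (left) and for the mean of each marker list (right), with blue for WT and orange for Zip13-KO, and circle, square and triangle for replicates 1, 2 and 3. Alox5ap, Alox5 and Ltb4r1 are lower in Zip13-KO as are the macrophage and neutrophil lists. The WT arrays are widely spread for Ptgis and for several lists, the stromal and mast cell lists among them.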

How the data were processed

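The deposited array files (Feature Extraction 11.5.1.1) give the authors' processed signal of each spot as intensity, corrected for background and not normalized between arrays. The deposited values table holds the authors' log2 intensity after quantile normalization and was used as an alternative only. Here, log2 of the processed signal was taken without control and outlier spots, spots of a probe were averaged, and arrays were quantile normalized. Of 55681 probes, 28331 (50.9%) were named through their RefSeq accession (GRCm38.p6). Probes well above background in at least a fraction of 0.5 of their spots on all 3 arrays of a genotype were kept, and the brightest stood for the gene. Genotypes were compared with limma 3.58.1 in R 4.3.3, without replicate numbers as a term. For the folds of dim probes, each dim array was raised to at least its lowest value well above background. These folds leave out the spread between arrays. Probes' own p-values were adjusted over all kept probes, named or not. The limma fit and the calling rule were checked on simulated gene-level values, and the earlier processing steps and the other tests were not.

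The genes, lists and tests were chosen with earlier results of these data known. Named are the 10 genes, Slc39a13, every called gene of the other pathway lists and the highest and lowest of each list, and the called markers with the largest rise and fall. The called marker nearest to 0 in a list, and the uncalled neutrophil and mast cell markers, were named after values were seen. Older symbols were updated (Pla2g16 to Plaat3, Fam213b to Prxl2b, Cyp2c44 to Cyp2c23). Promoters came from a RefSeq table with entries for 7 of the 10 genes. The array number limits the precision: with 3 arrays a genotype, an exact permutation test of 1 gene cannot go below p = 0.1. Background correction alternatives used the median signal, the one given in the files.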

Additional observations from a re-analysis of the deposited data

How the results depend on the processing

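No tested gene of the set changed sign under any of 19 alternatives. The calls 2 higher and 3 lower in the set, and 11 and 13 among the other pathway genes, moved as follows. With no filter on dim probes and, separately, with the replicate number as a block, 1 gene of the set was called higher and 8 other genes lower. In the replicate block fit Ptgds (adjusted p = 0.0679) and Alox5 (0.0537) lost their calls. Deviations of same-numbered samples from their genotype means correlated at -0.0209, 0.0383 and -0.0795, and those of other pairs at -0.173 to 0.179. Deviations within 3 arrays depend on each other, so these values do not settle whether the numbers pair the samples. With the methods' t-test and Benjamini-Hochberg adjustment, calls were 1008 higher and 721 lower over all genes (1576 and 1282 by limma), 0 higher in the set, and 6 higher and 6 lower among the other genes. Ptgds, Alox5 and Ephx2 lost their calls there. Without adjustment, an alternative added after seeing the data, 1 gene of the set was called higher, and 1552 and 1246 genes were called over all. At an adjusted p under 0.01, calls were 707 and 505 over all genes, 0 and 1 (Alox5ap) in the set and 5 and 5 among the others. Within slide column 1 all of these counts were 0 (limma passed 3738 genes, 3 of the set and 18 of the others at an unadjusted p under 0.05), and Slc39a13 was at -4.20 (adjusted p = 0.115). With each array left out in turn, calls over all genes ran from 961 to 1671 higher and from 782 to 1455 lower, with the fewest without Zip13-KO replicate 1 (without Zip13-KO replicate 2 they were 1027 and 791). Calls in the set ran from 0 to 2 higher and from 2 to 5 lower, and among the other genes from 6 to 11 higher and from 5 to 15 lower. Slc39a13 ran from -4.46 to -4.17. Ptgs1 was also called with no background correction (adjusted p = 0.0486). Per-array scaling, normexp, the deposited values, the filter on all 6 arrays, the mean of probes and the trended prior moved no count by over 1.5 times. Dim signal limits Ptgs2, Pla2g4f and Cyp2c23, and 3 arrays a genotype limit the rest.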
